A study of Mus musculus with 19 samples.

Results

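The genes described here encode voltage-gated calcium channels, voltage-gated sodium channels and the HCN channels, which open on hyperpolarisation. They were taken by symbol: every measured gene named Cacna, Cacnb, Cacng, Scn followed by a digit, or Hcn followed by a digit. This gave 37 of the 18193 genes measured, read by 87 of the 34945 probe sets that carry 1 gene symbol.

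RNA came from dendrites cut from mouse hippocampal neurons, labelled pyramidal, that were taken at embryonic day 18 and grown untreated in primary culture for 14 days. The inbred strains were Balb/c (5 arrays: 2 pools of 100 dendrites, 1 of 200 and 2 of 400) and C57BL/6 (14 arrays: 4 pools of 100, 5 of 200 and 5 of 400). Each array read 1 pool, gathered over many cells and amplified in several rounds, and some axonal material cannot be separated from the dendrites. Whether the pools of 1 strain were drawn from different cultures or embryos is not stated, and the p-values then cover only pool-to-pool spread, which may be technical. The comparisons ask which dendritic transcripts differ between strains and whether pool size changes the reading.

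A calcium channel is built around an alpha1 subunit that forms the pore. A beta subunit on the inner side of the membrane helps it reach the surface, and an alpha2delta subunit lies outside. A sodium channel has a pore-forming alpha subunit and small beta subunits that adjust its gating. In hippocampal dendrites these channels carry calcium entry and back-propagating spikes, and HCN channels pass a mixed cation current that damps the sum of synaptic inputs. Several gamma subunits (TARPs) act mainly on AMPA receptors, the fast glutamate receptors.

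Values are log2 expression, and a gene's value is the median of its probe sets. An array's name joins its strain, its pool size and its replicate number (Balb/c 100-1). Every difference is Balb/c minus C57BL/6. Over all genes the median difference was 0.22, and this shift is subtracted from each difference of a gene below. The tests (limma, Benjamini-Hochberg over all genes, called at an adjusted p of 0.05) used the values as deposited, without that subtraction. Array medians ran from 6.77 to 6.95 in Balb/c and from 6.62 to 6.86 in C57BL/6. The gap between the 3′ and 5′ control probes of Actb, which widens when amplified RNA is short, ran from -0.69 to 2.27 in Balb/c and from 1.17 to 5.56 in C57BL/6. In C57BL/6 the gap was 1.17 on array 200-1 and 1.65 on 400-1, inside the Balb/c range, and at least 3.27 on the others. It moves with strain in every strain comparison below, and its part in the results was not tested. The arrays Balb/c 200-1, C57BL/6 200-1 and C57BL/6 400-1 lay between the strains over all genes. The 5 Balb/c columns and 4 C57BL/6 columns were deposited with more decimals than the other 10, all C57BL/6, which was treated as a technical batch.

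Between the strains 14 of the 37 channel genes were called (37.8%), against 32.5% of all genes. Of these, 10 were higher in Balb/c (27.0%, against 21.1% of all genes) and 4 were lower (10.8%, against 11.4%), so as deposited each share lay near that of all genes. The genes higher in Balb/c were Cacna1f, Cacna2d4, Cacnb1, Cacng1, Cacng4, Cacng6, Cacng7, Scn10a, Scn2b and Hcn3. The genes lower in Balb/c were Cacnb4, Scn1a, Scn2a and Scn8a. At the study's threshold of 0.001 only Cacnb4 passed (2.70%, against 3.85% of all genes). For 0 of the 37 did the arrays of the strains separate without overlap, against 1.21% of all genes. After median centring of each array the same 14 genes were called, 10 higher (27.0%, against 14% of all genes) and 4 lower (10.8%, against 14.5%), so the share called higher then stood above that of all genes. No test of either share was made. In pooled material, fewer dendrites of a kind and less RNA per dendrite cannot be told apart.

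With the number format as a block, limma called 0 of the 37, against 1.92% of all genes, and 8 of the 37 (21.6%) had an unadjusted p under 0.05, against 21.5% of all genes. All 14 genes kept their direction in that fit, at 0.51 to 0.91 times the difference without the block (both as deposited). Their adjusted p ran from 0.0708 for Cacnb4 to 0.441 for Cacnb1. Within the 9 columns of the long format the lowest adjusted p among the 14 was 0.329. All Balb/c columns have that format, so the differences there equal those with the block, and the 2 fits are not separate checks. Its 4 C57BL/6 columns include 200-1 and 400-1, which lay between the strains. Without the 3 arrays that lay between the strains, all 14 were called, and Cacna1a, Cacna1b, Cacna1s, Scn4b and Scn7a were called as well. This made 14 higher and 5 lower, against 28.2% and 15.3% of all genes. Leaving out arrays chosen for lying between the strains favours a wider gap, so the gain in calls is not a separate check. Of the C57BL/6 arrays, 200-1 gave the highest value for Cacna1f, Cacna2d4, Scn10a and Scn2b, and 400-1 for Cacnb1 and Hcn3.

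**Figure D1:**
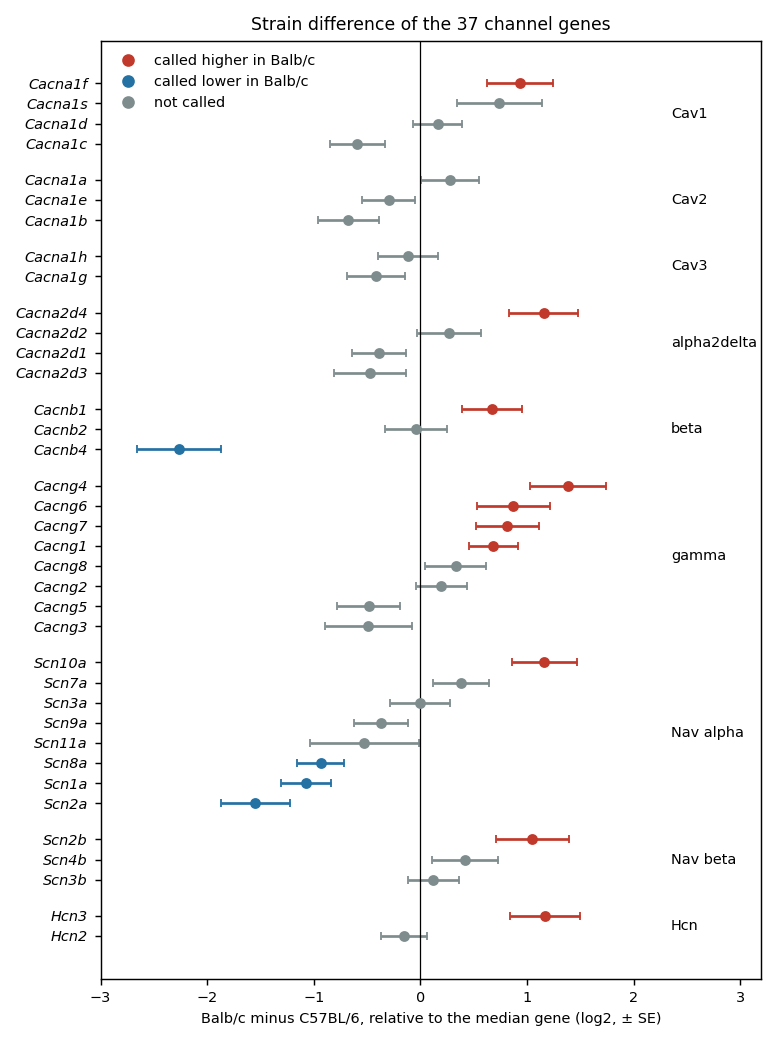
Difference between Balb/c and C57BL/6 for each of the 37 channel genes relative to the median gene (x axis, log2), ordered within subfamilies (names at right), with the standard error as bars. Red points mark the 10 genes called higher in Balb/c, blue points the 4 called lower and grey points the 23 not called. Cacnb4 lies farthest to the left at -2.26 and Cacng4 farthest to the right at 1.38.

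**Figure D2:**
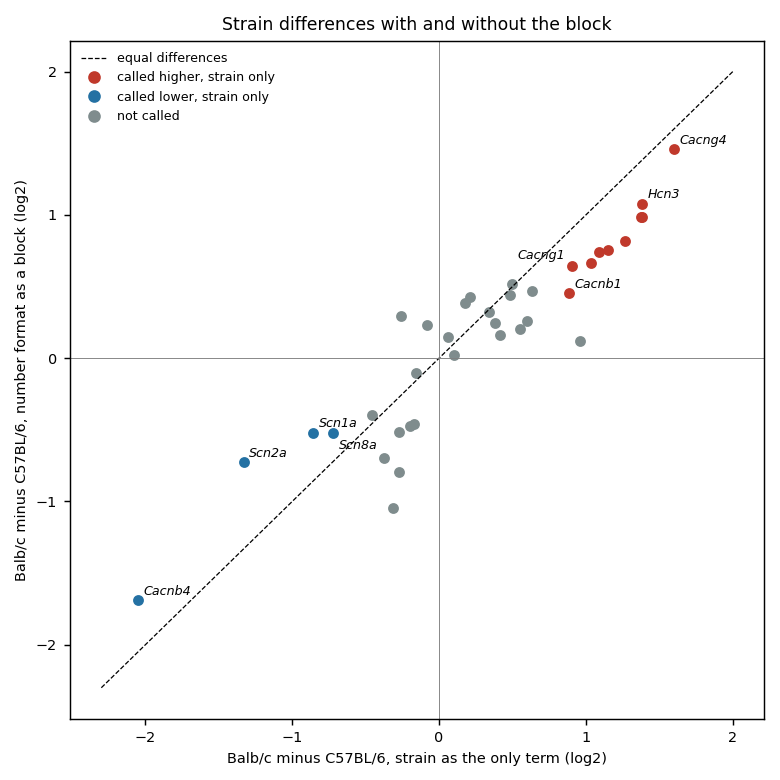
Strain difference (log2, as deposited) of the 37 channel genes with strain as the only term (x axis) and with the number format as a block (y axis), 1 point per gene, and a dashed line of equal differences. The 14 coloured genes keep their side of 0 and lie closer to 0 with the block, where none is called.

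Of the 9 pore-forming alpha1 genes of calcium channels, 1 was called, against 32.5% of all genes, and it was of the L type. Cacna1f, best known from photoreceptor synapses of the retina, read 7.52, 8.68, 6.97, 8.60 and 7.44 on Balb/c arrays 100-1, 100-2, 200-1, 400-1 and 400-2. On the C57BL/6 arrays its lowest, median and highest values were 5.48, 6.76 and 7.84. The highest C57BL/6 value came from array 200-1, and 11 of 14 C57BL/6 arrays lay below the lowest Balb/c array, so the ranges overlapped at their edges. Cacna1f averaged 7.85 ± 0.76 across Balb/c (SD, n = 5) and 6.70 ± 0.55 across C57BL/6 (SD, n = 14), a relative difference of 0.93 (SE 0.31, adjusted p = 0.00816). Its single probe set leaves no second reading of this gene.

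The other L-type genes did not pass the test. Cacna1s, the pore of the skeletal muscle channel, differed by 0.74 (SE 0.40, adjusted p = 0.0696). Cacna1c and Cacna1d, the L-type pores usual in neurons, differed by -0.59 (SE 0.26, adjusted p = 0.272) and by 0.16 (SE 0.23, adjusted p = 0.207). None of the Cav2 genes, whose channels trigger transmitter release, was called: Cacna1a (P/Q type) differed by 0.28, Cacna1b (N type) by -0.68 and Cacna1e (R type) by -0.30. Nor was either T-type gene, which opens at low voltage. Cacna1g differed by -0.41 and Cacna1h by -0.12, and Cacna1h lay below the lowest array median in both strains.

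The auxiliary subunits, 15 genes, held 7 of the 8 calcium channel calls, where 32.5% of all genes were called. No test over a subfamily was made, and this division depends on the gene value. With the probe set of highest mean, Cacna2d4, Cacnb1, Cacng6 and Cacng7 were not called, and the alpha1 genes Cacna1b, Cacna1c and Cacna1e were. Among 4 alpha2delta genes, whose products carry the pore to the surface and of which Cacna2d1 and Cacna2d2 bind gabapentin, only Cacna2d4 was called. It read 8.91, 9.50, 8.05, 10.34 and 9.45 on the Balb/c arrays in the same order. The C57BL/6 arrays gave 6.60, 8.03 and 8.70 as lowest, median and highest value. Balb/c 200-1 fell inside the C57BL/6 range and the other 4 Balb/c arrays lay above it. The means were 9.25 ± 0.84 (SD, n = 5) and 7.88 ± 0.56 (n = 14), a relative difference of 1.16 (SE 0.32, adjusted p = 0.00348), or 2.23-fold. The gene's value is the median of 3 probe sets, of which 1 was called alone. Cacna2d1, Cacna2d2 and Cacna2d3 differed by -0.39, 0.27 and -0.47 and were not called.

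The beta genes moved in opposite directions. Cacnb4, a partner of P/Q-type channels whose loss causes ataxia and seizures in the lethargic mouse, read 8.35, 6.07, 7.52, 4.99 and 6.89 on the Balb/c arrays. Its C57BL/6 values ran from 7.48 through a median of 8.91 to 9.78. In Balb/c 3 of 5 arrays lay below every C57BL/6 array, 400-1 lowest of all, and 11 of 14 C57BL/6 arrays lay above the highest Balb/c array. Cacnb4 averaged 6.76 ± 1.30 (SD, n = 5) against 8.81 ± 0.58 (n = 14), a relative difference of -2.26 (SE 0.39, adjusted p = 0.000832), which makes it 4.80-fold lower. It had the largest difference of the 37 and the smallest adjusted p, and each of its 3 probe sets was called lower. The lowest C57BL/6 value, 7.48, came from array 400-1, one of the 3 that lay between the strains.

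Cacnb1, the beta subunit of skeletal muscle that is also made in brain, was higher in Balb/c. It read 7.28, 7.93, 7.83, 8.53 and 7.92 on the Balb/c arrays, and from 6.37 through 6.80 to 7.91 on the C57BL/6 arrays. The strains overlapped, with 3 Balb/c arrays above all of C57BL/6 and 9 C57BL/6 arrays below all of Balb/c. The relative difference was 0.67 (SE 0.28, adjusted p = 0.0184), and without Balb/c 400-1 the adjusted p was 0.0771. Cacnb2 differed by -0.04 (SE 0.29) and was not called, and it lay below the lowest array median in both strains.

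The gamma genes gave 4 calls, all higher in Balb/c, of 8 measured, where 21.1% of all genes were called higher. Cacng4, a TARP that is abundant early in development, read 7.59, 9.49, 7.79, 9.26 and 7.89 on the Balb/c arrays. Its C57BL/6 values were 6.01, 6.58 and 8.13 as lowest, median and highest. Arrays 100-2 and 400-1 of Balb/c stood above all others, and 11 of 14 C57BL/6 arrays lay below the lowest Balb/c array. The means were 8.40 ± 0.90 (SD, n = 5) and 6.81 ± 0.65 (n = 14), a relative difference of 1.38 (SE 0.35, adjusted p = 0.00227), or 2.61-fold. Both of its probe sets were called higher.

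Cacng1, the gamma subunit first found in the skeletal muscle channel, read 8.27, 8.64, 7.68, 7.73 and 7.80 on the Balb/c arrays. The C57BL/6 arrays ran from 6.69 through 6.98 to 7.78, and 12 of 14 lay below the lowest Balb/c array. The relative difference was 0.69 (SE 0.23, adjusted p = 0.00607). Cacng7, a TARP of the second type, read 11.55, 11.42, 9.56, 10.44 and 10.54 on the Balb/c arrays and 8.74, 9.67 and 10.51 (lowest, median, highest) on the C57BL/6 arrays. Both pools of 100 Balb/c dendrites were high and Balb/c 200-1 and 400-1 lay inside the C57BL/6 range. The relative difference of Cacng7 was 0.82 (SE 0.30, adjusted p = 0.0118), and leaving out either pool of 100 Balb/c dendrites lost the call (adjusted p up to 0.0522).

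Cacng6, close in sequence to Cacng1, ran from 6.51 to 9.39 in Balb/c and from 5.97 to 7.73 in C57BL/6. It differed by 0.87 (SE 0.34, adjusted p = 0.0183), and without Balb/c 100-1, its highest array, the adjusted p was 0.0973. The remaining TARPs were not called. Cacng2 (stargazin), Cacng3, Cacng5 and Cacng8 differed by 0.20, -0.49, -0.49 and 0.33, and Cacng8 lay below the lowest array median in both strains. On chromosome 11 Cacng1, Cacng4 and Cacng5 are neighbours among protein-coding genes (RefSeq, GRCm38.p6), and on chromosome 7 Cacng7, Cacng8 and Cacng6 are, with the uncalled gene at the end of the first group and in the middle of the other.

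The alpha genes of sodium channels split by direction. The lower calls in Balb/c were Scn1a, Scn2a and Scn8a, the genes of the main brain sodium channels. The higher call was Scn10a, known from sensory neurons of the dorsal root ganglia. Scn2a, the channel of immature axons and of excitatory neurons, read 7.67, 7.03, 7.96, 7.46 and 6.95 on the Balb/c arrays. Its C57BL/6 arrays gave 7.37, 8.87 and 9.67 as lowest, median and highest value. All but 2 of the C57BL/6 arrays lay above every Balb/c array, and those 2 were 200-1 and 400-1. The means were 7.41 ± 0.43 (SD, n = 5) and 8.74 ± 0.69 (n = 14), a relative difference of -1.55 (SE 0.32, adjusted p = 0.00417), or 2.92-fold lower.

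Scn1a, whose loss in inhibitory neurons underlies Dravet syndrome, showed the same array pattern. It read 5.88, 6.31, 6.23, 5.74 and 5.74 on the Balb/c arrays and 5.79, 6.91 and 7.40 (lowest, median, highest) on the C57BL/6 arrays. Again 12 of 14 C57BL/6 arrays lay above all of Balb/c, and 200-1 and 400-1 lay among the Balb/c values. The relative difference was -1.07 (SE 0.23, adjusted p = 0.00844). None of its 3 probe sets was called alone, though each was lower in Balb/c, with relative differences of -0.53 to -0.83. As the mean of its probe sets Scn1a differed by -0.72 (adjusted p = 0.117) and by its probe set of highest mean by -0.77 (adjusted p = 0.181), so its call holds for the median of the probe sets on each array and is lost with these other gene values. Scn8a, the channel of mature nodes and initial segments, ran from 6.24 to 7.11 in Balb/c and from 6.55 to 7.82 in C57BL/6. It differed by -0.94 (SE 0.22, adjusted p = 0.0172), and without Balb/c 400-1 the adjusted p was 0.0665.

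Scn10a read 7.01, 6.28, 5.40, 6.48 and 6.01 on the Balb/c arrays and 3.76, 4.82 and 5.84 (lowest, median, highest) on the C57BL/6 arrays. Only Balb/c 200-1 lay inside the C57BL/6 range. The means, 6.23 ± 0.59 (SD, n = 5) and 4.85 ± 0.58 (n = 14), both lay below the lowest array median of 6.62, so the call concerns a dim probe set. The relative difference was 1.16 (SE 0.30, adjusted p = 0.00206). Scn11a and Scn9a, also of sensory neurons, differed by -0.53 and -0.37, Scn3a, the embryonic channel, by -0.01, and Scn7a, a sodium sensor, by 0.38, and none was called. The means of Scn11a, Scn9a, Scn3a and Scn7a also lay below the lowest array median in both strains. For Scn11a 1 array, C57BL/6 100-2, stood at 10.14 while the median of that strain was 5.88.

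Of the 3 beta genes of sodium channels, 1 was called. Scn2b, which helps bring alpha subunits to the surface, read 8.26, 8.62, 7.30, 9.94 and 8.80 on the Balb/c arrays. On the C57BL/6 arrays it read 6.40, 7.25 and 8.23 at the lowest, median and highest. Balb/c 200-1 was the only Balb/c array inside the C57BL/6 range. The relative difference was 1.05 (SE 0.34, adjusted p = 0.00795), or 2.07-fold. Scn4b, whose gene lies beside Scn2b on chromosome 9, differed by 0.42 and Scn3b by 0.12, and neither was called. The Scn4b means lay below the lowest array median in both strains.

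Both measured HCN genes are made in brain, and they differed in outcome. Hcn3 read 8.08, 9.45, 9.49, 9.75 and 8.66 on the Balb/c arrays and 6.88, 7.53 and 9.33 (lowest, median, highest) on the C57BL/6 arrays. The highest C57BL/6 value was that of array 400-1, and 11 of 14 C57BL/6 arrays lay below the lowest Balb/c array. Hcn3 averaged 9.09 ± 0.69 (SD, n = 5) and 7.70 ± 0.64 (n = 14), a relative difference of 1.17 (SE 0.33, adjusted p = 0.00377), or 2.25-fold. Hcn2 read 6.78, 7.08, 5.92, 6.39 and 6.81 on the Balb/c arrays and 6.04, 6.58 and 7.01 on the C57BL/6 arrays. Its values overlapped along their whole length, with a relative difference of -0.16 (SE 0.22, adjusted p = 0.853). The Hcn2 means, 6.60 in Balb/c and 6.53 in C57BL/6, lay below the lowest array median of 6.62, so this reading comes from a dim probe set. Each HCN gene was read by 1 probe set.

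**Figure D3:**
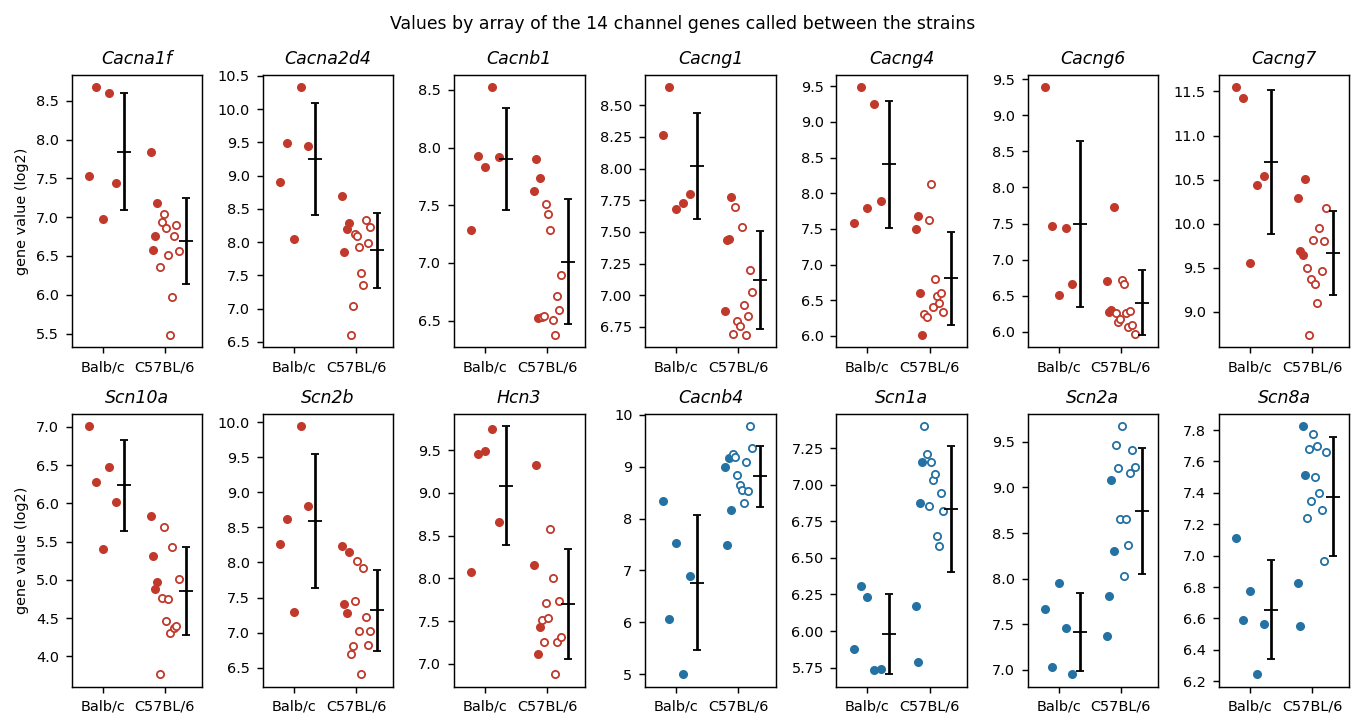
Gene value (log2, y axis, a scale of its own in each panel) on each Balb/c and C57BL/6 array for the 14 channel genes called between the strains, with the mean and SD of each strain as black bars. Red panels are higher and blue panels lower in Balb/c, filled points mark columns of the long number format and open points the 10 columns of the short format. In every panel some arrays of the strains overlap, and for Scn1a and Scn2a the C57BL/6 points among the Balb/c values are both filled.

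Probe sets of 1 gene did not always move together. Of the 87 probe sets 36 were called (41.4%, against 33.3% of all probe sets with 1 symbol). Higher in Balb/c were 21 (24.1%, against 20.4%), and lower were 15 (17.2%, against 12.9%). Of the 26 genes with over 1 probe set, 3 had probe sets called in both directions, and these were Cacna1b, Cacna1e and Scn2a. The share of such genes over the whole array was not computed, so whether 3 of 26 is unusual cannot be said. Probe set differences are given relative to the median probe set.

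For Cacna1b, probe set 1439612_at read 8.75, 7.93, 9.44, 7.93 and 9.28 on the Balb/c arrays and 9.12, 10.13 and 11.31 (lowest, median, highest) on the C57BL/6 arrays, so 0 of 5 Balb/c arrays reached the C57BL/6 median. Probe set 1425812_a_at of the same gene read 7.41, 8.32, 7.03, 7.84 and 7.05 in Balb/c and 5.35, 6.25 and 7.45 in C57BL/6, with all 5 Balb/c arrays above the C57BL/6 median. The differences were -1.68 (adjusted p = 0.00354) and 1.10 (adjusted p = 0.00459). The gene value, a median over these, did not show the split, and by it Cacna1b was not called. With other gene values it was called lower, with relative differences of -1.16 as the mean of its probe sets (adjusted p = 0.0199), -1.65 with the probe set of highest mean (adjusted p = 0.00334) and -2.13 without probe sets of ambiguous name (adjusted p = 0.00285). It was also called lower without Balb/c 200-1 (adjusted p = 0.0491). With the number format as a block none of its 4 probe sets was called, and the opposing pair had adjusted p of 0.0769 and 0.271. The other probe sets, 1436602_x_at and 1460608_at, differed by -1.57 and -2.49, and in both the array Balb/c 200-1 lay high, at 7.74 and 7.54.

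Cacna1e showed the same split with 2 probe sets. Probe set 1421692_at read 7.30, 7.44, 7.66, 9.16 and 7.32 in Balb/c and 5.58, 6.38 and 7.39 in C57BL/6, a difference of 1.14 (adjusted p = 0.00275). Probe set 1436260_at read 7.05, 6.79, 7.36, 7.13 and 5.81 in Balb/c and 6.54, 8.58 and 9.32 in C57BL/6, a difference of -1.73 (adjusted p = 0.00692). The median of the pair left the gene close to 0, at -0.30. With the number format as a block neither probe set was called, with adjusted p of 0.0809 and 0.308.

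In Scn2a 3 probe sets were lower and 1 was higher. Probe set 1427280_at read 9.43, 9.39, 8.36, 9.86 and 8.16 in Balb/c and 8.64, 10.39 and 11.18 in C57BL/6, a difference of -1.50 (adjusted p = 0.0154). The others called lower, 1427281_at and 1435933_at, differed by -1.32 and -2.20. Probe set 1445259_at read 11.95, 12.19, 11.29, 12.11 and 11.83 in Balb/c and 10.81, 11.29 and 11.85 in C57BL/6, with 4 of 5 Balb/c arrays above the C57BL/6 median. It differed by 0.36 (adjusted p = 0.0402). A gene value taken from the probe set with the highest mean would therefore turn the direction of Scn2a, to 0.57 before the median gene is subtracted.

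Other called genes rested on part of their probe sets. Cacna2d4 had 1 of 3 called, at 1.86, with the others at -0.45 and -1.33. Cacnb1 had 1 of 4, Cacng6 and Cacng7 1 of 2 each, and Scn2b 2 of 3, with no probe set called against the gene's direction. Scn8a had 3 of 5 called lower. Among genes not called, Scn7a had 2 of 3 probe sets called higher, while Cacna1c (-1.69) and Cacng2 (-0.89) each had 1 called lower and Scn3b (1.12), Scn9a (1.01), Cacng8 (0.97) and Cacna2d1 (0.80) each had 1 called higher. Which transcript ends or isoforms these probe sets read was not analysed here.

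**Figure D4:**
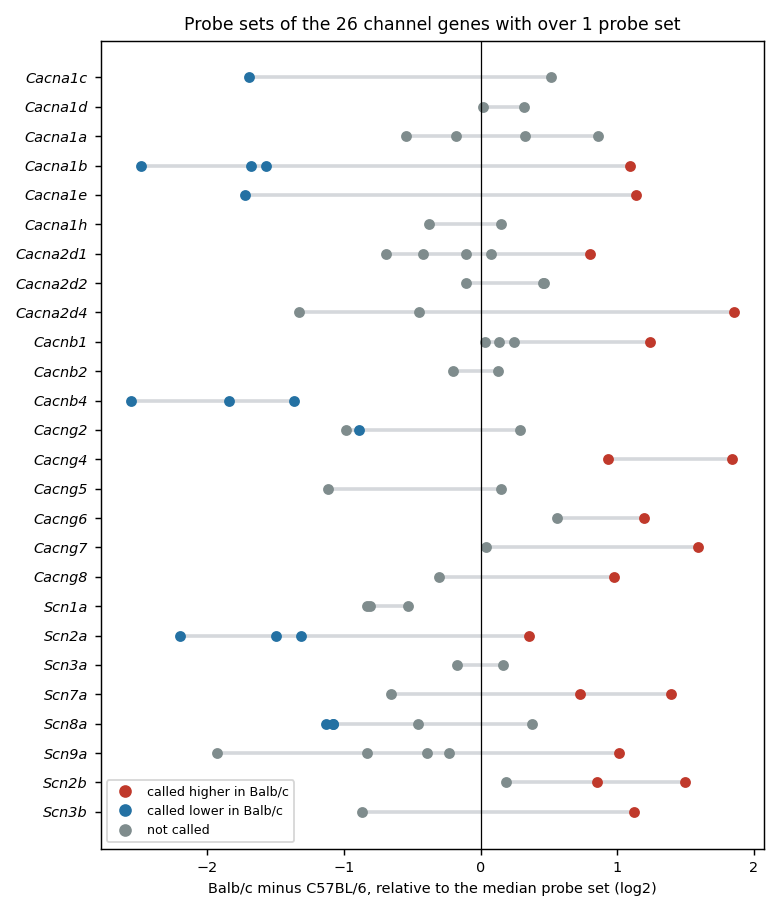
Strain difference of each probe set relative to the median probe set (x axis, log2) for the 26 channel genes with over 1 probe set, 1 point per probe set and a grey line from the lowest to the highest of a gene. Red points were called higher in Balb/c, blue points lower and grey points not called. Cacna1b, Cacna1e and Scn2a hold both red and blue points, and Cacnb4 holds blue points only.

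Pool size moved none of the channel genes past the test. With strain in the model, the change per doubling of the number of dendrites ran from -0.38 for Cacng6 to 0.25 for Cacng5, and limma called 0 of the 37, against 0% of all genes. At an unadjusted p under 0.05 there were 2, Cacng6 (-0.38, SE 0.17) and Scn1a (-0.26, SE 0.11), against 850 over all genes (4.67%). The slope did not differ between strains by the interaction test in any of the 37 (0% of all genes). There 2 had an unadjusted p under 0.05, against 3.79% of all genes. These were Cacng8, whose Balb/c slope minus C57BL/6 slope was -0.82 (SE 0.30), and Cacna1d, at 0.54 (SE 0.25). Within C57BL/6, pools of 400 against pools of 100 gave 0 calls (0% of all genes). At an unadjusted p under 0.05 this contrast gave 0 genes of the 37, against 5.79% of all genes. Means of Scn1a in C57BL/6 were 7.16, 6.85 and 6.56 in pools of 100, 200 and 400, a difference of -0.60 (SE 0.29) that did not pass.

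**Figure D5:**
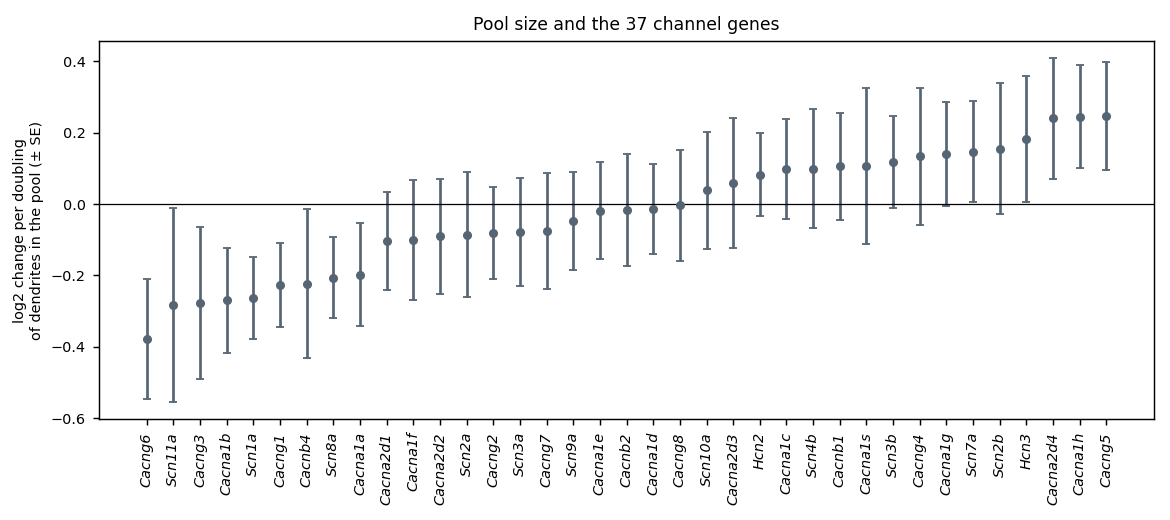
Change in gene value per doubling of the number of dendrites in a pool (y axis, log2, bars show the standard error) for the 37 channel genes ordered by slope, from the fit over all 19 arrays with strain as a covariate. Slopes ran from -0.38 to 0.25 and none was called.

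Genes that act on these channels or beside them, such as anchoring proteins, cytoplasmic partners and calcium release channels, were read from a list of 62, of which 55 were measured. Of these, 8 were called higher in Balb/c (14.5%, against 21.1% of all genes) and 9 lower (16.4%, against 11.4%). After median centring 5 were higher and 11 lower, where 14% and 14.5% of all genes were. The partners' median relative difference was -0.22, where that of all genes is 0 by construction and that of the channel genes was 0.12. Fgf13, a cytoplasmic partner of sodium channels, averaged 9.59 ± 0.69 across Balb/c (SD, n = 5) and 10.99 ± 0.40 across C57BL/6 (SD, n = 14), a difference of -1.62 (adjusted p = 0.000749). Nrcam, an adhesion molecule of nodes and initial segments, differed by -1.72 (adjusted p = 0.00276), and Fam155a, an auxiliary subunit of the sodium leak channel, by -2.50 (adjusted p = 0.00298). Higher in Balb/c were Tmem37, a gamma-like subunit, by 1.96 (adjusted p = 0.000983), Itpr3, a calcium release channel, by 1.45 (adjusted p = 0.00165), and Catsper3, known from sperm, by 0.82 (adjusted p = 0.00286). With the number format as a block none of these 6 was called, the lowest adjusted p being 0.0650 for Fgf13. Of all 55 partners 1 was called in that fit, against 1.92% of all genes. This was Cask, a scaffold kinase of synapses, singled out after its values were seen. It differed by -1.55 (adjusted p = 0.00783) with strain alone and by -1.80 as deposited with the block (adjusted p = 0.0409).

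As deposited, markers of cell types were called between the strains at shares near those of all genes. Of 45 measured, 11 were higher in Balb/c (24.4%, against 21.1% of all genes) and 6 lower (13.3%, against 11.4%). After median centring 4 were higher (8.89%, against 14% of all genes) and 8 lower (17.8%, against 14.5%). With the number format as a block 2 were called (4.44%, against 1.92% of all genes), Gad1 (adjusted p = 0.0338) and Itgam (adjusted p = 0.0492). Of 7 pyramidal markers measured, 1 was higher in Balb/c (Camk2a, 0.47, with an adjusted p of 0.0627 after centring) and 2 were lower (Neurod6, -2.45, and Map2, -1.45). Their mean over the list ran from 7.92 to 9.17 on Balb/c arrays and from 8.48 to 9.29 on C57BL/6 arrays. Slc17a7, a transporter that defines excitatory neurons, averaged 6.74 and 6.36, near or below the array medians, while Nrgn averaged 13.32 and 13.03. Of 7 interneuron markers, 1 was higher (Pvalb) and 2 were lower (Gad1, -2.39, and Sst, -1.52), and the list mean ran from 7.27 to 7.57 in Balb/c and from 7.28 to 8.47 in C57BL/6. Glial and vascular markers were also called: 0 higher and 2 lower of 9 for astrocytes, 4 higher and 0 lower of 9 for oligodendrocytes, 3 and 0 of 8 for microglia, and 2 and 0 of 5 for endothelium. After centring these counts were 0 and 2, 1 and 1, 2 and 0, and 0 and 1. Their list means ran from 6.27 to 7.87, 6.56 to 7.13, 6.67 to 7.32 and 5.56 to 7.23 in Balb/c, and from 6.50 to 7.68, 6.40 to 6.82, 5.88 to 6.93 and 5.94 to 6.67 in C57BL/6. In both strains 4 of the 9 astrocyte, 3 of the 9 oligodendrocyte, 4 of the 8 microglial and 2 of the 5 endothelial markers averaged below the lowest array median, among them Gfap, Mog, Aif1 and Cldn5. Others lay above it in both strains, such as Slc1a3 (7.94 in Balb/c and 7.67 in C57BL/6), Olig2 (7.80 and 8.64), Cx3cr1 (9.28 and 9.03), Csf1r (8.71 and 7.33) and Pecam1 (7.60 and 6.75). The part of these markers in the channel differences was not tested.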

How the data were processed

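Dendrite pools were read on Affymetrix mouse arrays after several rounds of aRNA amplification. The authors deposited 1 log2 expression value for each probe set and array. The submitters' processing notes name RMA, version 2.0, and the range scaling described in the methods is not in these values. Of 45101 probe sets, 64 were controls, 34945 had 1 symbol, 932 several and 9160 none. Symbols came from the platform annotation, and 34741 matched the RefSeq table by gene identifier, with 0 changed. The array's annotation carries no build and coordinates were left out, while RefSeq (GRCm38.p6) served only for names and for which genes are neighbours. Probe sets sharing 1 symbol were reduced to their median on each array, and dim genes were kept.

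Linear models for strain and for pool size were fitted in limma (version 3.58.1, under R 4.3.3) on all 19 arrays, with moderated variances (eBayes) and adjustment by Benjamini-Hochberg over 18193 genes, or over 34945 probe sets. The named genes were, in each subfamily, up to 3 called members with the smallest p, all HCN genes, every member with probe sets called both ways, and up to 6 called partners with the smallest p. The other members are given by difference, range and counts. Other scalings, gene values, filters, batch and pairing blocks, tests and sets of arrays were tried. Scripts were tested on simulated data. The channel genes, lists and tests were chosen with earlier results of these data known. The number of arrays limits the precision.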

Additional observations from a re-analysis of the deposited data

Results flagged for a closer look

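Within the 5 Balb/c arrays, 1 array stood apart from the other 4 for 2 of the 37 channel genes. Cacna2d1 read 7.439 on Balb/c 100-2 and 6.24 to 6.58 on the other arrays, a gap of 0.716 of the whole range. Cacna2d3 read 8.803 on Balb/c 100-1 and 6.31 to 7.02 on the others, a gap of 0.714 of the range. The critical value for 5 arrays is 0.71, and chance passes it in about 1 in 20 groups, so 2 of 37 is about what chance gives. Neither gene was called between the strains.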

How the results depend on the processing

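Of the 14 channel genes called between the strains (10 higher in Balb/c, 4 lower), 0 were called with the number format as a block, 0 with only the long number format and 0 with the replicate block (pool size and replicate number); 21.6%, 10.8% and 16.2% of the 37 then had an unadjusted p under 0.05, against 21.5%, 13% and 18.3% of all genes. Without Balb/c 100-2 and 400-1, an alternative chosen after seeing the data, 4 of the 37 were called. These were 2 higher and 2 lower, against 6.13% and 5.21% of all genes, and 3 were among the 14 while Cacna1s was gained. With all arrays, at a threshold of 0.001 there was 1, with 0 higher and 1 lower. The cause of these losses was not tested. For each of the 37 genes the block and the long format alone gave the same difference, so they are not separate checks. The replicate numbers do not pair the pools: correlations of same-numbered deviations ran from -0.189 to 0.0714. Leaving out each array in turn gave 12 to 18 called genes, lowest without Balb/c 100-1 and highest without Balb/c 200-1. The 12 were 8 higher and 4 lower, against 18.8% and 10.4% of all genes. The 18 were 13 higher and 5 lower, against 23.5% and 12.5% of all genes. The median relative difference of the 37, 0.123, was -0.0702 with the probe set of highest mean per gene, 0.351 over the 21 brighter genes, 0.000192 with the mean of probe sets, 0.00715 without ambiguous probe sets and 0.0401 without Balb/c 100-1. The probe set of highest mean also turned Cacna2d4 to -0.238 and Scn2a to 0.571 (as deposited). It gave 14 calls, but only 8 of the same genes in the same direction: Cacna2d4, Cacnb1, Cacng6, Cacng7 and Scn1a were lost and 5 others gained. The mean of probe sets gave 13 calls, 11 of them shared, losing Cacna2d4, Scn1a and Scn8a, and leaving out ambiguous probe sets gave 15, 12 of them shared, losing Cacnb1 and Scn8a. The remaining alternatives gave 11 to 19 calls. The 11 were 8 higher and 3 lower of the 21 brighter genes, against 19.1% and 18.1% of all brighter genes. The 19 came without the 3 arrays between the strains, where 28.2% of all genes were called higher and 15.3% lower. Quantile normalisation moved the calls over all genes from 21.1% higher and 11.4% lower to 15.2% and 13.9%. All alternatives for pool size gave 0. Calls for dim genes such as Scn10a are limited by signal over background, which the deposited values do not give.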
